A study of Mus musculus with 6 samples.

Results

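The genes described here are 3 early growth response factors, Egr1, Egr2 and Egr3, and the 2 corepressors that bind them, Nab1 and Nab2. They were taken by symbol from count tables of 23282 gene entries, and all 5 symbols were found. The family was selected on the counts of Egr2, which were lower with CPN, so the Egr2 values are given as a description without a test. The samples were 3 control and 3 CPN samples of RAW 264.7, a mouse macrophage cell line that can be driven to form osteoclasts, and all 6 were collected on day 5 of osteoclast differentiation. Messenger RNA was counted from QuantSeq libraries, which read the 3′ ends of transcripts. The series title names a 60 kDa chaperonin, one of the barrel-shaped machines that fold proteins, and the labels do not give the source, dose or time of addition of CPN or the agent that drove differentiation. The labels also do not say that the samples were separate cultures, and if they were not, the p-values describe technical spread alone.

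EGR factors are zinc finger proteins that bind a GC-rich DNA site. Their genes are switched on quickly by growth factor and cytokine signals, through MAP kinases and through serum response factor with its ternary complex partners. NAB1 and NAB2 bind an inhibitory region of EGR1, EGR2 and EGR3 and recruit the NuRD chromatin remodelling complex. EGR factors also switch on Nab2, which closes a feedback loop. In myeloid cells, EGR factors with NAB2 are known to favour the macrophage over the neutrophil programme, in part by repressing Gfi1. EGR2 is also known from alternatively activated macrophages, and has been described as a brake on osteoclast formation that acts through Id proteins.

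Library totals lay between 7957228 and 9713938 counts, so 3 counts were worth between 0.309 and 0.377 CPM (counts scaled to a common library size). Genes with a mean of 6 to 12 counts were at 0 in between 14.0% and 41.2% of cases in a library, where Poisson counting error gives 0.0538%, so values of a few counts are less certain than their counting intervals. The share was lowest in CPN 1 (14.0%) and control 3 (23.8%) and lay between 36.9% and 41.2% in the others. Fits without both of these libraries are therefore also given, and whether this difference added to the spread within groups was not tested. The macrophage genes Cd68 and Spi1 averaged 845 and 297 CPM in control and 740 and 197 CPM in CPN, and Mrc1 had at most 6 counts in any library. Of 9 tested macrophage markers, Itgam, Adgre1, Fcgr1 and Cd14 rose and Spi1 fell, and 2 of them passed without both control 3 and CPN 1. Fcgr1 had 7, 145 and 27 counts in control 1 to 3 and passed the low-count filter only through its CPN counts, so its rise is a description. The fall of Spi1 did not pass with the replicate number as a block (edgeR adjusted p = 0.0569), or without control 1 (0.112), control 3 (0.0769), CPN 2 (0.135), CPN 3 (0.112) or both control 3 and CPN 1 (0.0865). Of 10 tested osteoclast markers, 8 fell and 1 rose (edgeR's quasi-likelihood test, Benjamini-Hochberg adjusted p of at most 0.05), where 6.39% of 11092 tested genes fell and 7.62% rose. Oscar and Tnfrsf11a did not pass without control 3, CPN 1, CPN 2 or both control 3 and CPN 1, which left 6 that fell. Tnfrsf11a also failed without control 1, which left 7. Summed, the osteoclast markers reached 4504 to 4763 CPM in control and 1887 to 2511 CPM in CPN. The EGR and NAB values below therefore compare cultures that also differed in osteoclast markers.

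All 5 genes passed the filter on low counts. Egr2 was far lower in CPN, Egr3 was lower in each CPN library on few counts, and Egr1 overlapped between the groups. Nab1 was higher in each CPN library, and Nab2 overlapped. With TMM scaling, the groups were separate for 3 of the 5 genes, 1 of which, Egr2, was chosen for its difference, and for 32.6% of all tested genes. By direction, 2 members lay below the controls and 1 above, against 15.7% and 16.9% of all tested genes. Of the 4 genes other than Egr2, 0 passed edgeR's quasi-likelihood test at an adjusted p of 0.05, where 14.0% of all tested genes passed. At an unadjusted p under 0.05 there was 1, Nab1, and DESeq2 and limma-voom also passed 0.

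**Figure D1:**
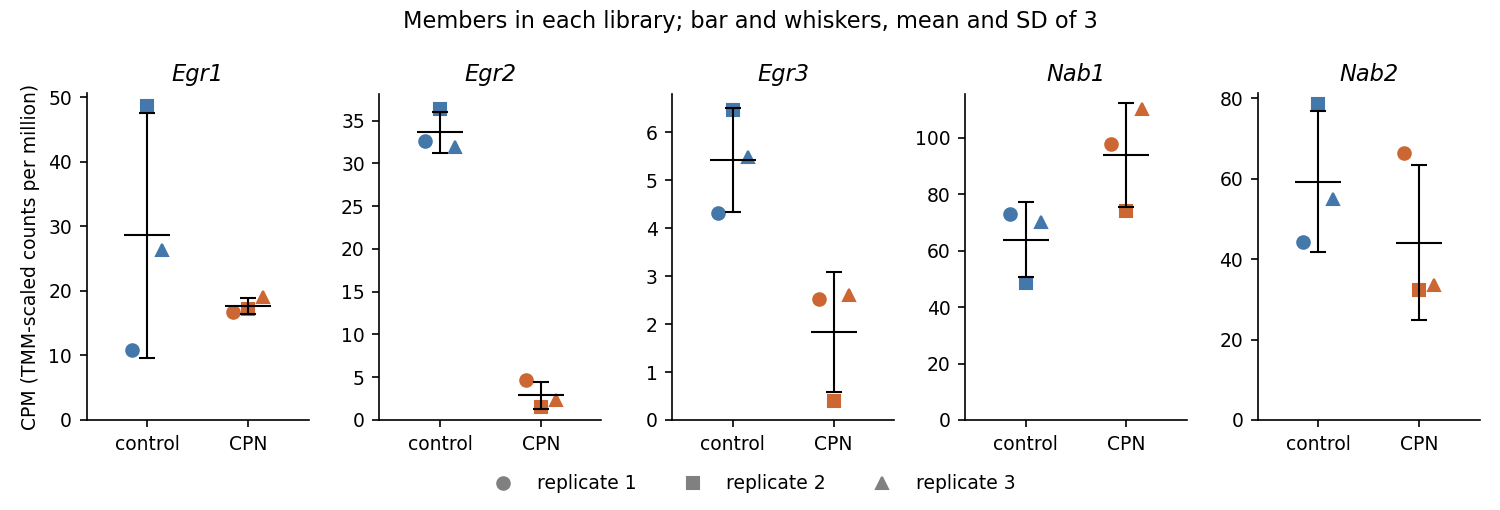
CPM (counts scaled to library size with TMM factors) of the 5 genes in each library, with the mean and SD of 3 libraries per group and a separate scale for each gene. The 3 CPN libraries lay below the controls for Egr2 (1.57 to 4.68 against 31.9 to 36.4 CPM) and Egr3, above them for Nab1, and within or across the control range for Egr1 and Nab2.

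Egr2, also called Krox-20, lies on chromosome 10, from 67534469 to 67542188 on the plus strand (GRCm38.p6, the build also called mm10). It had 332, 304 and 273 counts in control 1 to 3, or 32.6, 36.4 and 31.9 CPM. In CPN 1 to 3 it had 39, 12 and 19 counts, or 4.68, 1.57 and 2.36 CPM. The controls were close together, with a coefficient of variation of 7.24%, and the highest CPN library, CPN 1, was far below the lowest control. The means were 33.6 ± 2.43 CPM in control and 2.87 ± 1.62 CPM in CPN (SD, n = 3). The fit gave -3.54 ± 0.433 (SE) on the log2 scale, or 11.6-fold lower. That was the 50th lowest log2 fold change among 11092 genes, given as a description because the fall of Egr2 chose the family. In bulk RNA, fewer cells that make a transcript and less of it per cell cannot be told apart. The nearest measured gene is Ado, an oxygen-dependent thiol dioxygenase gene 2322 bases away on the other strand, which had -0.75 ± 0.241 on the log2 fold change scale (SE, edgeR adjusted p = 0.0562) and shares no annotated bases with Egr2.

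The Egr2 promoter is shown because it holds a match to the CArG box, the site of serum response factor, through which such early genes are switched on. RefSeq lists 5 windows of 250 bases before to 50 bases after an Egr2 start. The one printed, chr10:67537619-67537918 on the plus strand, belongs to the most upstream start among the GENCODE exons of Egr2. It is written 5′ to 3′ with the CArG match in capitals, at bases -72 to -63 from the start.
Egr2: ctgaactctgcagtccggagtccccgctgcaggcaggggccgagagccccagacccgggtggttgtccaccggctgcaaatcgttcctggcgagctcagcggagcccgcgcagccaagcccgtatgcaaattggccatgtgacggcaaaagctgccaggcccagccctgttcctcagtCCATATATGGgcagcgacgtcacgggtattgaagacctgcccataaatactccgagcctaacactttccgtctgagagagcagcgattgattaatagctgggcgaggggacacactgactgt
A CArG box, searched on both strands, is present in 1.63% of 32817 RefSeq promoter windows of this length. The window also holds the core CGTCA of the cyclic AMP response element at -55 to -51 and, on the other strand, at -111 to -107, a motif found in 20.8% of windows. Neither the full element TGACGTCA nor the EGR motif GCGNGGGCG was found in it. The other Egr2 windows overlap this one or lie upstream, and the one that starts at 67537316 holds a different CArG match at its own -72 to -63. Serum response factor itself did not pass the test, with 61.7 ± 8.55 CPM of Srf in control and 62.9 ± 8.26 CPM in CPN (SD, n = 3, edgeR adjusted p = 0.96). Promoter windows were matched for 3 of the 5 genes, Egr2, Nab1 and Nab2.

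Egr1, the founding member of the family, lies on chromosome 18, from 34861207 to 34864956 on the plus strand. Its controls held 110, 406 and 226 counts, or 10.8, 48.6 and 26.4 CPM, and its CPN libraries 140, 131 and 154 counts, or 16.8, 17.2 and 19.1 CPM. The controls ranged on both sides of the tightly grouped CPN libraries: control 1 was the lowest of all 6 and control 2 the highest. The coefficient of variation was 66.5% in control and 7.02% in CPN. The fitted log2 fold change was -0.69 ± 0.44 (SE, 95% interval -1.64 to 0.26, edgeR adjusted p = 0.362). It was -1.08 without control 1 and -0.05 without control 2, so single control libraries set its size.

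Egr3, which overlaps in function with Egr2 in lymphocytes, lies on chromosome 14, from 70077317 to 70082613 on the plus strand. Its counts in library order were 44, 54 and 47 in the controls and 21, 3 and 21 in the CPN libraries. In CPM these were 4.32, 6.47 and 5.49 against 2.52, 0.393 and 2.60. The CPN libraries all lay below the controls, and CPN 2 stood lowest, at 3 counts. The log2 fold change of -1.55 ± 0.906 (SE) had a 95% interval from -3.51 to 0.41, and the gene did not pass (edgeR adjusted p = 0.316). Without CPN 2 the log2 fold change was -1.07. Its biological coefficient of variation was 0.662, higher than that of 88.7% of tested genes, and at this depth a fall of the size seen was not separable from the spread.

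Egr4, whose protein NAB proteins do not bind, and Wt1, which encodes related zinc fingers, had 0 counts in all 6 libraries. In these libraries 3 counts are worth 0.309 to 0.377 CPM. Zeros were more frequent than Poisson counting error gives, so this is not an upper bound.

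**Figure D2:**
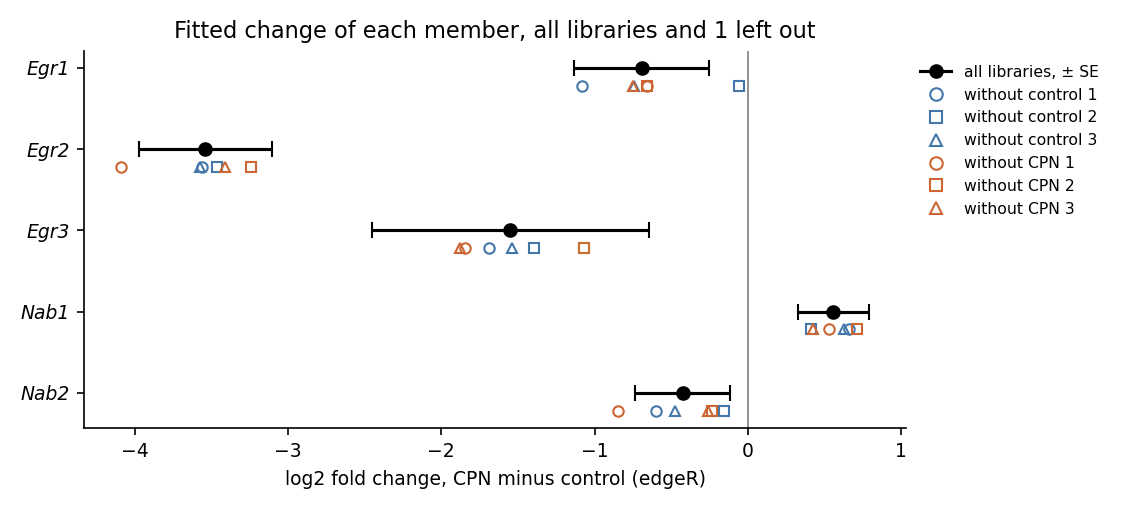
Fitted log2 fold change of CPN minus control for each gene (filled points, ± SE) and the same value with each library left out in turn (open symbols, by group and replicate). Egr2 stayed between -4.08 and -3.24 and Nab1 between 0.41 and 0.71, whereas Egr1 ran from -1.08 to -0.05 and Nab2 from -0.85 to -0.16.

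The makeup of the EGR counts differed between the groups. These are shares of 3′ counts, with no correction for how well each gene is counted, so they compare libraries and not the genes with each other. Egr2 took 68.3% of the summed Egr1, Egr2 and Egr3 counts in control 1 (exact 95% interval 64.0% to 72.4%), 39.8% in control 2 (36.3% to 43.4%) and 50% in control 3 (45.7% to 54.3%). In CPN 1, 2 and 3 it took 19.5% (14.2% to 25.7%), 8.22% (4.32% to 13.9%) and 9.79% (6% to 14.9%). The groups did not overlap, and the Egr2 fall that chose the family enters every one of these shares. Egr1 took 39.05% ± 15.4 of the EGR counts in control and 79.7% ± 9.87 in CPN (SD, n = 3). The intervals cover counting error only.

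Set against the corepressors, the 3 controls in order held 0.407, 0.72 and 0.51 EGR counts per NAB count, and the 3 CPN libraries 0.146, 0.18 and 0.167. Without Egr2 the ratio was 0.129, 0.434 and 0.255 in the controls and 0.118, 0.165 and 0.151 in CPN. Control 1 then lay within the CPN range, so the groups overlapped once Egr2 was left out.

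**Figure D3:**
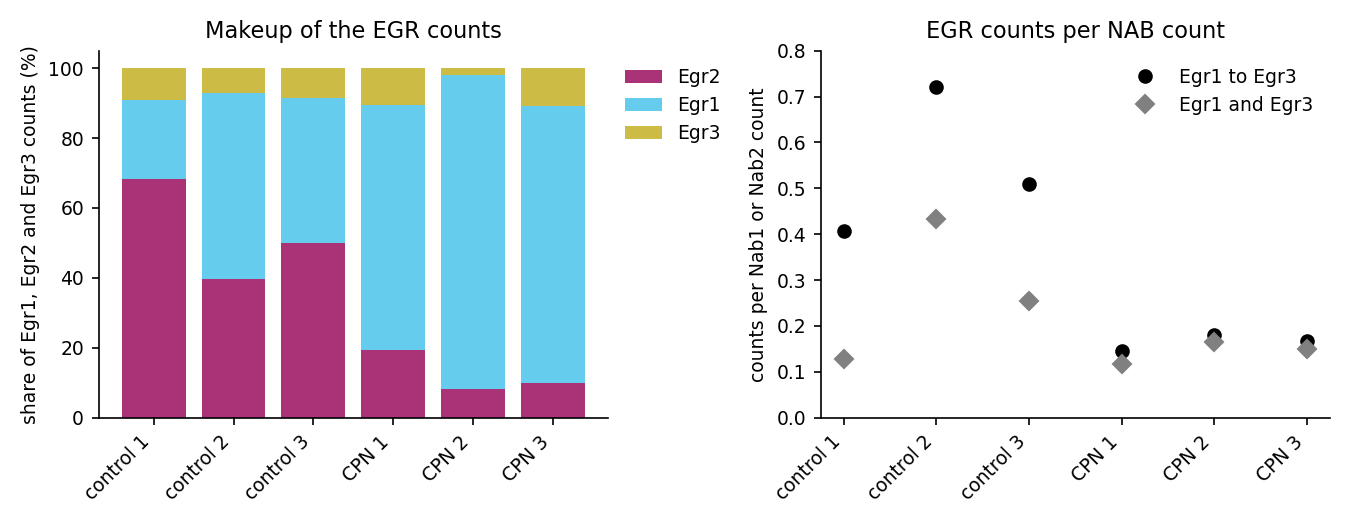
Left, the share of Egr1, Egr2 and Egr3 in their summed counts for each library. Right, the EGR counts per NAB count with all 3 factors (circles) and with Egr1 and Egr3 only (diamonds): the circles separate control from CPN (0.407 to 0.72 against 0.146 to 0.18), and the diamonds do not.

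Nab1, a corepressor of EGR factors, lies on chromosome 1, from 52455849 to 52500712 on the minus strand. The controls had 744, 406 and 601 counts, or 73.0, 48.6 and 70.2 CPM, and the CPN libraries had 815, 565 and 890, or 97.8, 74.0 and 110.4 CPM. After TMM scaling the groups did not overlap, but CPN 2 was barely above control 1, and their exact 95% counting intervals overlapped. By library totals alone, CPN 2 lay below control 1 and control 3, so the groups then overlapped. Means were 64.0 ± 13.3 CPM in control and 94.1 ± 18.5 CPM in CPN (SD, n = 3). The fitted difference was 0.56 ± 0.23 on the log2 scale (SE, 95% interval 0.06 to 1.05). The gene did not pass after adjustment over all genes (edgeR unadjusted p = 0.0314, adjusted p = 0.141). Its TMM-scaled values were higher in 3 of 3 CPN libraries. Its log2 fold change was 0.43 when libraries were scaled by their totals alone, which shifted the median over all genes from -0.01 to -0.13.

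A Nab1 promoter window is shown because it holds 3 matches to the EGR motif, and EGR factors are known to switch on the sister gene Nab2. This window lies wholly inside the RefSeq span of Nab1, which reaches 52500712, so the outermost annotated start is further upstream. The window is chr1:52500399-52500698 on the minus strand (RefSeq, GRCm38.p6), written 5′ to 3′ with the matches to GCGNGGGCG on either strand in capitals, at -141 to -133, -109 to -101 and -38 to -30.
Nab1: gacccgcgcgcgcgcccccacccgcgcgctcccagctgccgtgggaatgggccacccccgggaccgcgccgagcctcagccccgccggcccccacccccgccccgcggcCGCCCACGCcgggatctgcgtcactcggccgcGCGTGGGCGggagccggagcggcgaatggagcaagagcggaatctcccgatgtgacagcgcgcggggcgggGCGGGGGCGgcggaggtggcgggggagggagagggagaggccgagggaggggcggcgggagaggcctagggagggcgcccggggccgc
At least 1 match is present in 5.56% of all promoter windows and at least 3 matches in 0.195%. The window is 81.7% G or C, against a median of 52.7% over all windows. Among the 867 windows within 5 points of its G and C content, 40.7% hold at least 1 match and 4.15% hold at least 3. A match gives the letters only and not a bound site. In the Nab2 window, chr10:127666654-127666953, neither this motif nor the CArG box was found.

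Nab2, the second corepressor, lies on chromosome 10, from 127660918 to 127666703 on the minus strand. Counts were 451, 655 and 470 in the controls, or 44.2, 78.5 and 54.9 CPM, and 552, 246 and 271 in the CPN libraries, or 66.2, 32.2 and 33.6 CPM. CPN 2 and CPN 3 lay below all controls, while CPN 1 lay above control 1 and control 3. The log2 fold change of -0.43 ± 0.311 (SE, 95% interval -1.10 to 0.25) did not pass (edgeR adjusted p = 0.437). It was -0.85 without CPN 1 and -0.16 without control 2. Of the NAB counts, Nab2 made up 47.8% ± 12.5 in control and 31.4% ± 8.57 in CPN (SD, n = 3), and these ranges overlapped.

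The 3′ end of Nab2 overlaps that of Stat6, the transcription factor of interleukin 4 signalling, which lies on the other strand. The gene spans share 70 bases, from 127660918 to 127660987, and the annotated exons share 40. QuantSeq reads fall near 3′ ends and the use of strand in the counting is not given in the sources used here, so a read from those bases may have been counted for Nab2, for Stat6 or for both. Stat6 counts were 1249, 1101 and 1034 in the controls and 925, 417 and 915 in the CPN libraries, both in replicate order. Its log2 fold change of -0.43 ± 0.253 (SE) did not pass (edgeR adjusted p = 0.324). CPN 2 had the fewest counts of the 6 libraries for both genes. Among measured genes, 0 others overlapped an EGR or NAB gene.

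**Figure D4:**
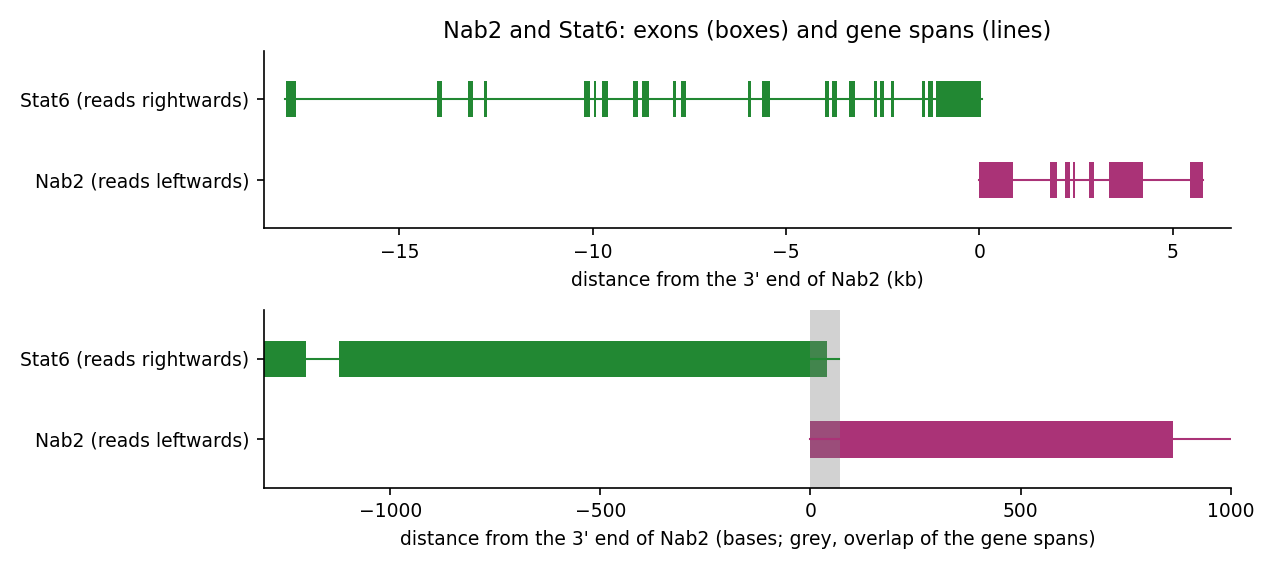
Nab2 and Stat6 on chromosome 10, as distance from the 3′ end of Nab2, with GENCODE exons as boxes and RefSeq gene spans as lines. The upper panel shows both genes whole and the lower panel the 70 bases in which the spans meet (grey).

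NuRD is the complex that NAB proteins recruit, and 0 of its 13 tested genes passed edgeR's quasi-likelihood test in either direction, against 14.0% of all genes. At an unadjusted p under 0.05 there was 1. Their median log2 fold change was -0.003, and that of all tested genes was -0.008. Chd4, the ATPase subunit contacted by NAB2, had 325 ± 47.3 CPM in control and 340.4 ± 29.2 CPM in CPN. The histone-binding subunit gene Rbbp7 had -0.57 ± 0.195 on that scale (SE, edgeR adjusted p = 0.0736) and was below the controls in all 3 CPN libraries. It passed by DESeq2 (adjusted p = 0.0399) and limma-voom (adjusted p = 0.0466), where it was the 1 gene of the list that did, and by edgeR with library totals alone, with no filter, without control 2 or without CPN 3. Rbbp4, Chd3 and Hdac2 had log2 fold changes of -0.28, -0.34 and -0.35.

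Of 19 genes upstream of EGR transcription, from the M-CSF receptor through RAS and MAP kinases to serum response factor and its partners, 0 passed the same edgeR test, against 14.0% of all genes, and 2 had an unadjusted p under 0.05. DESeq2 and limma-voom also passed 0. The median log2 fold change was -0.08. Mkl1, a serum response factor coactivator, had 39.1 ± 3.79 CPM in control and 23.1 ± 4.0 CPM in CPN (SD, n = 3, edgeR adjusted p = 0.0756), and it passed with library totals alone (adjusted p = 0.0446). The kinase gene Rps6ka1 and the ternary complex factor gene Elk3 had log2 fold changes of -0.55 and -0.57. Csf1r, which encodes the M-CSF receptor, stood at -0.39 ± 0.246 (log2 fold change and SE, edgeR adjusted p = 0.362), and without CPN 1 it was -0.79 with an adjusted p of 0.0198. These are transcript levels and do not measure kinase activity.

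Immediate-early genes, which are switched on by the same signals as Egr1, moved both ways. Of 23 tested, 7 rose and 2 fell, or 39.1% called against 14.0% of all genes, with a median log2 fold change of 0.73. Atf3, a stress-induced transcription factor gene, rose from 12.8 ± 6.27 to 168 ± 5.86 CPM (log2 fold change 3.71 ± 0.312 SE, edgeR adjusted p = 1.16e-05). Ier3, a survival gene of stressed cells, rose 5.29-fold. The mRNA decay factor gene Zfp36 rose 2.48-fold, and the stress sensor gene Gadd45b rose 2.67-fold. The other genes that rose were Dusp1, Dusp6 and Fosl1. Those that fell were Fos, from 56.2 ± 11.8 to 23.9 ± 9.82 CPM (edgeR adjusted p = 0.0208), and Klf10. These 5 genes were named after their values were seen. The number called was 5 without control 1, 4 without control 3, 4 without CPN 2, and 2 without both control 3 and CPN 1, and 0 of the list were lower in the last 3 of these fits. Fos did not pass without control 3 (edgeR adjusted p = 0.113), CPN 1 (0.0638), CPN 2 (0.0717) or both control 3 and CPN 1 (0.262). Zfp36 and Gadd45b did not pass without both control 3 and CPN 1 (0.0701 and 0.091). Klf10 overlapped between the groups and did not pass by limma-voom (adjusted p = 0.052). With edgeR it did not pass without control 1 (adjusted p = 0.108), control 3 (0.21), CPN 1 (0.154) or CPN 2 (0.158). Dusp1, Dusp6 and Fosl1 did not pass without control 1, control 3 or CPN 2. They and Klf10 also failed without both control 3 and CPN 1. Dusp1 failed without CPN 1 too, and Dusp6 and Fosl1 without CPN 3.

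Of 16 tested genes known as EGR targets in other cells, 8 rose and 1 fell, or 56.2% called, against 14.0% of all tested genes (7.62% rose and 6.39% fell), with a median log2 fold change of 1.17. Gadd45a, a growth arrest gene, rose to 34.8 ± 7.79 CPM from 0.313 ± 0.442 CPM (edgeR adjusted p = 4.82e-05). The cytokine gene Tnf rose 4.19-fold from 34.0 ± 6.43 CPM. Csf1, which encodes M-CSF, had 0 counts in each control and 116, 60 and 156 in CPN 1 to 3. Against 3 counts per control library it was 41.0-fold higher. Zeros were far more frequent than Poisson counting error gives, so that fold is not a lower bound. Gadd45a and Csf1 passed the low-count filter only through their CPN counts, so they could be called only as higher. The share of 56.2%, which includes them, is therefore a description. Socs3, a cytokine feedback inhibitor, rose 6.26-fold. Id2, the helix-loop-helix inhibitor placed downstream of EGR2 in osteoclast precursors, rose from 36.9 ± 15.4 to 79.8 ± 13.2 CPM (log2 fold change 1.11 ± 0.303 SE, edgeR adjusted p = 0.0265) and was named after its value was seen. It did not pass with library totals alone (edgeR adjusted p = 0.0534), or without control 1 (0.0539), CPN 1 (0.0792), CPN 2 (0.119) or both control 3 and CPN 1 (0.0975). Id3, the other Id gene of the list, overlapped between the groups and did not pass (log2 fold change 1.12 ± 0.572 SE, edgeR adjusted p = 0.243). The list was drawn from general knowledge of other cells. Several of its genes, such as Tnf, also answer to inflammatory signals, and Gadd45b is in the immediate-early list too.

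Of the alternative activation genes, which respond to interleukin 4 in a programme in which EGR2 is known to act, 6 of 15 could be tested, and 1 rose and 1 fell, where 7.62% of all tested genes rose and 6.39% fell. Tgm2, encoding transglutaminase 2, fell from 64.6 ± 11.5 to 15.9 ± 3.30 CPM (edgeR adjusted p = 0.000258). The chemokine gene Ccl22 had 1 count in the controls and 172 in CPN, a ratio of 194 with an exact 95% counting interval of 34.4 to 7705. It passed the low-count filter only through its CPN counts, so it could be called only as higher. Ccl22 did not pass without CPN 2 (edgeR adjusted p = 0.0607), and a filter of at least 5 CPM in at least 3 libraries removed it, which left Tgm2 as the 1 gene of the list called in both fits. The lectin gene Clec10a and the receptor subunit gene Il4ra had log2 fold changes of -2.17 and 1.30 and did not pass (edgeR adjusted p = 0.251 and 0.255). Retnla, Chil3 and Ccl17 had 0 counts in every library.

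Of the neutrophil genes, 4 of 14 could be tested and 3 rose, where 7.62% of all tested genes rose. Lcn2 and S100a8 passed the low-count filter only through their CPN counts, so they could be called only as higher. The comparison with 7.62% is therefore a description. Gfi1, the repressor that opposes EGR factors with NAB2 in myeloid lineage choice, had 16, 62 and 34 counts in the controls and 131, 169 and 176 in the CPN libraries. It rose from 4.32 ± 2.94 to 19.9 ± 3.62 CPM (log2 fold change 2.21 ± 0.54 SE, edgeR adjusted p = 0.0157), with all CPN libraries above all controls. It did not pass without control 3 (edgeR adjusted p = 0.0618), CPN 2 (0.0675) or CPN 3 (0.0556), where its log2 fold change was 2.15, 2.13 and 2.13, or without both control 3 and CPN 1 (0.143). Lcn2 and S100a8, genes of neutrophil granules and cytosol that inflamed macrophages also make, rose from 2 and 1 control counts to 22299 and 564. Cebpe, a granulocyte transcription factor gene, was tested and did not pass (log2 fold change 1.01, edgeR adjusted p = 0.722). Elane, Ctsg, Ngp and Camp, which define neutrophils and their precursors, had 0 counts in every library, and Mpo and Prtn3 had at most 6 counts in any. Ltf and S100a9 had at most 1 count. Csf3r, the G-CSF receptor gene, and Mmp8, a collagenase gene, were named after their values were seen. Csf3r had 1, 1 and 2 counts in the controls and 3, 30 and 32 in CPN 1 to 3, and Mmp8 had 1, 0 and 0 against 0, 1 and 23. The summed level of the list was 1.77 to 7.79 CPM in control and 562 to 1223 CPM in CPN, where Lcn2 alone averaged 937 ± 358 CPM (SD, n = 3). Stromal and lymphoid markers summed to 0.467 to 6.23 CPM in control and 12.2 to 20.4 CPM in CPN, with the B cell gene Ms4a1 at 0 in every library. In that list the proteoglycan gene Dcn, the 1 gene of 10 that could be tested, had 0 counts in each control. Against 3 counts per control library it was 31.0-fold higher in CPN, which for the same excess of zeros is not a lower bound. Dcn too passed the low-count filter only through its CPN counts. The labels name only a cell line, and whether any such cells were present or added to the EGR and NAB values was not tested.

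**Figure D5:**
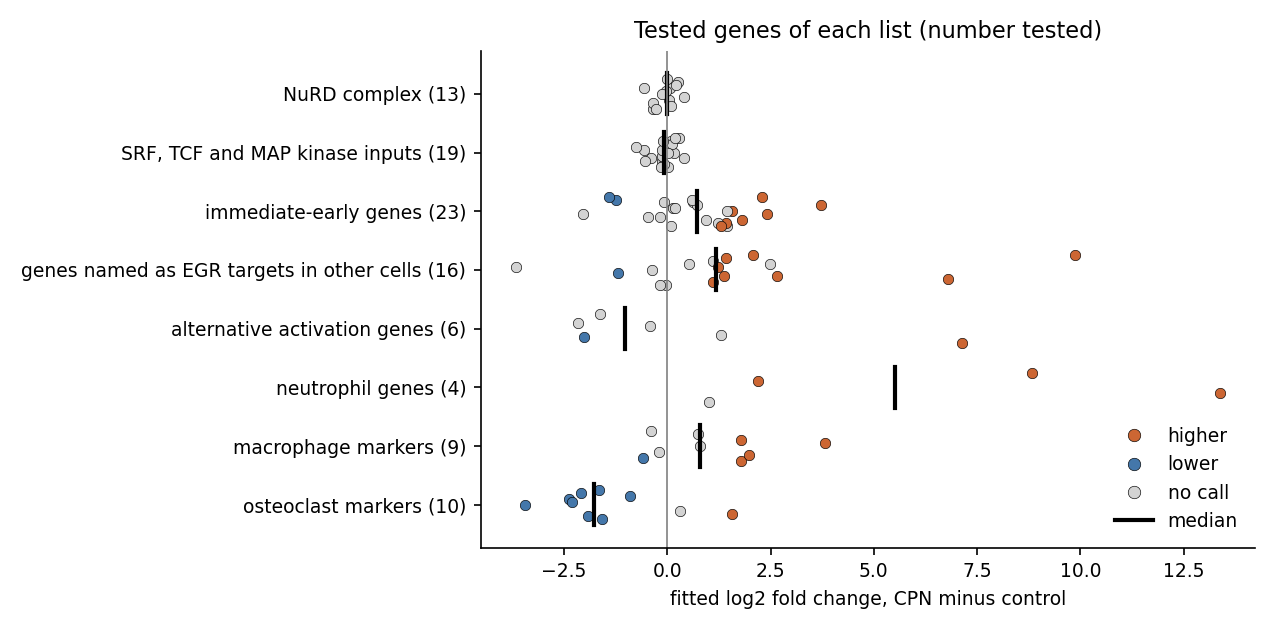
Fitted log2 fold change of CPN minus control for each tested gene of the lists with at least 4 tested genes, coloured by the edgeR call, with the list median as a bar. Genes of NuRD and of the MAP kinase and serum response factor inputs had medians of -0.003 and -0.08 and none was called, and the osteoclast markers lay mostly below 0 (median -1.78). Fitted values of genes with 0 to 3 control counts, such as Csf1 and Lcn2, depend on the prior count and are not bounds.

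Genes whose levels followed each member over the 6 samples were listed by Pearson's r of log2 CPM among 9172 genes of at least 5 CPM, as a description. For Egr2 these were Arid4a (r = 0.998), St18 (r = 0.996) and Ncoa4 (r = 0.995). All 3 fell, by 0.87, 0.85 and 1.38 on the log2 scale. Egr2 was chosen because it fell, so genes picked for following it had to be lower in CPN. For Egr1 they were Polrmt, Tagap1 and B3gat3 (r = 0.993, 0.993 and 0.985), and for Egr3 they were Xpo7, Ube3a and Rnf135 (r = 0.996, 0.996 and 0.994). Tmem251, Plk4 and Cdr2 were most like Nab1 (r = 0.998, 0.988 and 0.988). Zc3h18, Stag1 and Trpv2 were most like Nab2 (r = 0.997, 0.974 and 0.973). None of the 12 genes listed for Egr1, Egr3, Nab1 and Nab2 passed the edgeR test. With 6 samples in 2 groups and 9172 genes to choose from, high values of r arise easily and carry no test here.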

How the data were processed

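Messenger RNA was counted in 3 control and 3 CPN samples, and each sample's deposited file holds whole-number counts for every gene. The authors aligned reads to mm10 with Bowtie2 and counted them with bedtools, per the submitters' processing notes. Not given in the sources used here are the versions, the gene annotation, whether counting used strand, and how duplicates and multiply aligned reads were handled.

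Counts were scaled by TMM and filtered with filterByExpr (minimum count 10, minimum total 15) in edgeR 4.0.16 under R 4.3.3. The contrast of CPN and control used edgeR's quasi-likelihood test at a threshold of 0.05, after Benjamini-Hochberg adjustment across 11092 genes. The code was tested on simulated counts. An SE is the log2 fold change divided by the square root of F. Intervals of single-library values are exact 95% counting intervals and cover counting error only. Positions and promoters are from RefSeq, and exons from GENCODE, both on GRCm38. Motifs were searched by exact match on both strands. The genes and lists were chosen with earlier results of these data known. In each list, up to 4 tested genes with the smallest p were named, with the 3 most similar genes per member and each member's overlapping or neighbouring genes where a result touches them. Not every gene so picked is described, and some listed genes are not reported here. Alternatives were other scalings, DESeq2 1.42.0, limma-voom (limma 3.58.1), other filters, the replicate number as a block, removal of Rn45s and each library left out in turn.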

Additional observations from a re-analysis of the deposited data

How the results depend on the processing

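The 5 EGR and NAB genes kept their direction under all alternatives run, and none of Egr1, Egr3, Nab1 and Nab2 passed under any. The log2 fold change of Egr2 lay between -4.12 and -3.24 over 15 alternatives, that of Nab1 between 0.41 and 0.71 (adjusted p 0.112 to 0.387), that of Nab2 between -0.90 and -0.16 (0.103 to 0.803) and that of Egr1 between -1.08 and -0.05 (0.0736 to 0.958). Egr3 lay between -1.88 and -1.07 (0.231 to 0.562) over 14, and a filter of at least 5 CPM in at least 3 libraries removed it. The number of genes called, 1554, ranged from 884 to 1954 with 1 library left out, with 995 without control 1, 884 without control 3, 1032 without CPN 1 and 915 without CPN 2. Without both control 3 and CPN 1 it was 446. Fewer samples entered these fits. With library totals alone, 43.02% of the genes called were higher in CPN, against 54.38%.

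Samples with the same replicate number did not deviate together over all tested genes (correlations -0.0507, 0.0196 and 0.0276 for numbers 1 to 3). Many of these genes have low counts, so this cannot exclude a pairing, and the labels do not state one. With the number as a block, 1326 genes were called, and the log2 fold change was -0.45 for Egr1, -3.64 for Egr2, -1.79 for Egr3, 0.56 for Nab1 and -0.47 for Nab2.

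Egr3 had the fewest counts of the 5 genes, at 3 to 54 per library.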
